A study of Rattus norvegicus with 4 samples.

Results

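Mature oligodendrocytes are the cells that hold the myelin sheaths of the central nervous system. They were taken here as nuclei with at least 500 genes, at most 5% mitochondrial counts and at least 5 UMIs (unique molecular identifiers, each 1 captured transcript) summed over Mog, Mobp, Mag, Opalin, Ermn, Hapln2 and St18. Such a nucleus held no UMI of Enpp6, at most 1 of Pdgfra and at most 2 of Slc17a7, Camk2a, Gad1 and Gad2 together. By this rule 3295 of 43903 nuclei were mature oligodendrocytes. The nuclei came from the orbitofrontal cortex of wild-type male Sprague-Dawley rats aged 8 weeks, profiled by droplet-based single-nucleus RNA sequencing. The METH group had received methamphetamine at 1 mg/kg and the control group saline, both by intraperitoneal injection for 7 days and with pentobarbital before death. Tissue of 4 rats per group went into 2 libraries per group; the labels do not tie rats to libraries, so p-values measure only how these libraries vary, which may be technical. The comparison asks what differs after repeated METH, and values of the 4 libraries are listed as METH replicate 1, METH replicate 2, saline replicate 1, then saline replicate 2.

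Oligodendrocytes arise from precursors (OPCs) that carry the receptor Pdgfra, pass through a short newly formed stage marked by Enpp6, and then wrap axons in layers of compacted membrane. Compact myelin is held together by the basic protein Mbp and others, while Mag, Mog and Opalin sit on its inner, outer or adaxonal membranes and Ermn shapes the processes. The factors Sox10 and Myrf drive many of these genes, and the finished cell supplies axons with metabolites and keeps cholesterol and galactolipid synthesis running.

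The nuclei carried Mbp, a myelin gene that the rule did not use. Its level overlapped that in newly formed oligodendrocytes, given below, so it does not tell the mature stage from that one. Mbp was detected in 99.6%, 99.9%, 98.8% and 100% of the mature nuclei. Of the marker genes that did enter the rule, a nucleus held a median of 10, 11, 8 and 12 UMIs, and all 7 were seen together in 38, 55, 6 and 51 nuclei. Nuclei just outside the limit, with 4 marker UMIs, had Mbp at 5412, 5518, 2905 and 4678 CPM (UMIs per 1000000 in the summed nuclei), against 5971, 4794, 3022 and 6821 CPM just inside it at 5 UMIs. Inside the limit Mbp was higher in 3 libraries and lower in METH replicate 2.

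Promoters of the genes that choose the nuclei are shown because Sox10 and Myrf are known to act on several of them; RefSeq promoters on the build GRCr8, 250 bases before to 50 after the start of the gene, were at hand for 4 of the 7. Capitals mark exact matches, on either strand, to the Sox-type motifs ACAAAG and ACAATG and to CTGGCAC, a form of the Myrf motif. Mobp lies on the plus strand at chr8:128746982-128747281, and Opalin, Mag and Hapln2 on the minus strand at chr1:249858141-249858440, chr1:95290995-95291294 and chr2:175794389-175794688.
Mobp: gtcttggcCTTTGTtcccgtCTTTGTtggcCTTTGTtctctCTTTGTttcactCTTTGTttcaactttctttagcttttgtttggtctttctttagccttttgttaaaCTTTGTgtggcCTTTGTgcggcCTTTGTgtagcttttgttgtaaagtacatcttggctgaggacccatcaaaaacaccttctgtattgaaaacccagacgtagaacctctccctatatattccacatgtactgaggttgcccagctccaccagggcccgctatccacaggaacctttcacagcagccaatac
Opalin: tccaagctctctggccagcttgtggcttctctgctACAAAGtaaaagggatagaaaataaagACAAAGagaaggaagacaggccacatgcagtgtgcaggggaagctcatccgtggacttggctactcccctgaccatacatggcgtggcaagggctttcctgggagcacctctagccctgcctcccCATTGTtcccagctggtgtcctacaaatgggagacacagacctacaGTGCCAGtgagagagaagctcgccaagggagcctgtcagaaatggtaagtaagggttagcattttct
Mag: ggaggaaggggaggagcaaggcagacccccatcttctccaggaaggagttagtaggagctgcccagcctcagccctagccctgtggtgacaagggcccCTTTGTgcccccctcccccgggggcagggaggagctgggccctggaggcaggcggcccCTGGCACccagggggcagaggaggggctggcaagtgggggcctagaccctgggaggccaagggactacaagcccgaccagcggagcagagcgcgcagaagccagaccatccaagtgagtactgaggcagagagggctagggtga
Hapln2: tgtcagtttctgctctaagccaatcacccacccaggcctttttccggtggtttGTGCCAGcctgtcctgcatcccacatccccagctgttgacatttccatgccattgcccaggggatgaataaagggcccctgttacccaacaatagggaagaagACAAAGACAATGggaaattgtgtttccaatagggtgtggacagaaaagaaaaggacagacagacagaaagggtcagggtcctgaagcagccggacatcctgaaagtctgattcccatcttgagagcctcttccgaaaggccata
The Mobp window held 8 matches to ACAAAG, which reads CTTTGT on the strand shown, and no match to the other motifs. The Opalin window held 2 matches to ACAAAG, 1 to ACAATG and 1 to CTGGCAC, that of Mag 1 to ACAAAG and 1 to CTGGCAC, and that of Hapln2 1 to each motif, with both Sox-type matches side by side. Among all 33465 windows of this length 18.8% held ACAAAG, 29.1% either Sox-type motif and 4.75% CTGGCAC, and 7 windows (0.0209%) held at least 5 matches to ACAAAG, a count looked up after the Mobp value was seen. Of 22 genes looked up, 13 had a window at hand, and only those of these 4 are printed. The windows of Cldn11, Septin4, Ppp1r14a, Rpe65 and Sgk1 held no Sox-type match, nor did 1 of the 2 windows of Mbp. The other Mbp window and those of Cnp, Aspa and Fnbp1 held at least 1. Outside the printed windows, CTGGCAC was found in that of Cnp and in 1 of the 3 of Sgk1. A match describes letters only, and binding was not measured in these libraries.

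Mbp was already high in newly formed oligodendrocytes, whereas Mog, Opalin and Ermn were not. The 173 newly formed nuclei, chosen by at least 2 UMIs of Enpp6, had Mbp at 7331, 6012, 5156 and 6162 CPM, and the mature nuclei at 6106, 5534, 4830 and 6441 CPM. OPCs stood at 18.0 to 27.9 CPM of Mbp. The 2 stages overlap in Mbp across libraries. Cldn11, another myelin gene outside the rule, overlapped as well. It stood at 336, 378, 195 and 223 CPM in newly formed nuclei and at 354, 315, 241 and 387 CPM in mature ones.

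Mog, a surface protein of the outermost myelin, stood at 2993, 3087, 2758 and 3304 CPM in mature nuclei and at 428 to 941 CPM in newly formed ones. Opalin, a membrane glycoprotein of oligodendrocytes, stood at 712, 623, 779.7 and 855 CPM against 38.9 to 142 CPM, and Ermn, an actin-binding protein of the processes, at 462, 438, 432 and 496 CPM against 38.9 to 144 CPM. These 3 genes chose the mature nuclei, so the gap is a description. Among genes outside the rule, Car2 and Apod showed the same order. Car2, the carbonic anhydrase of oligodendrocytes, stood at 1637, 1393, 1245 and 1785 CPM against 272 to 398 CPM. Apod, a lipid carrier, stood at 893, 759, 811 and 1080.2 CPM against 117 to 497 CPM. Tcf7l2, a factor of the differentiating stage, went the other way with 66.1, 62.9, 85.2 and 66.0 CPM in mature nuclei against 1076 to 1732 CPM in newly formed ones, and so did the kinase Fyn, with 123, 148, 148 and 145 CPM against 1828 to 3132 CPM. In each of these genes but Mbp and Cldn11, the libraries of the 2 stages did not overlap.

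**Figure D1:**
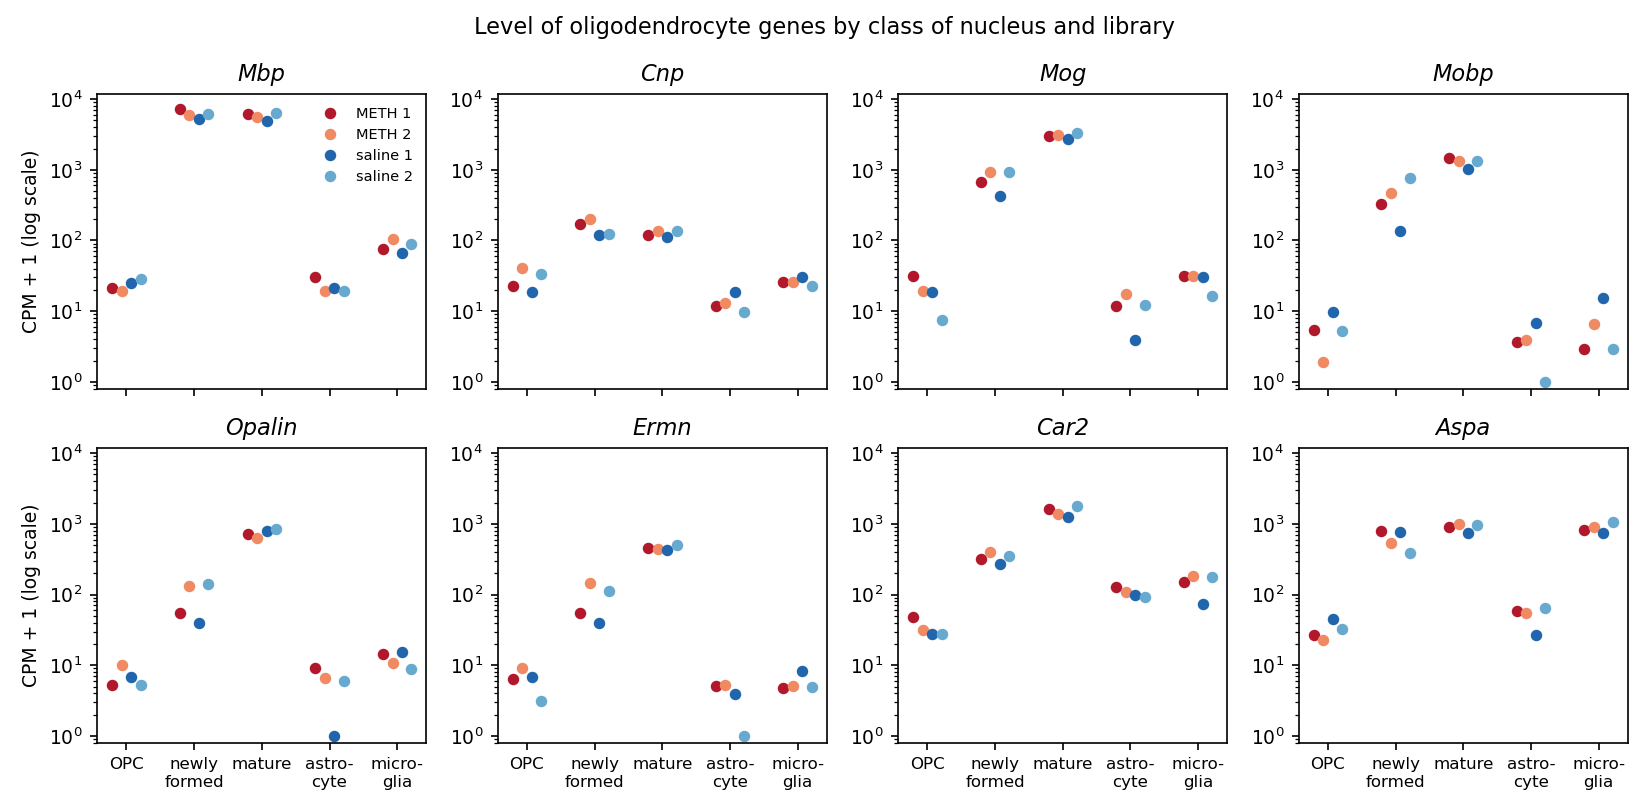
Level of 8 oligodendrocyte genes (CPM + 1, log axis) in 5 classes of nuclei, 1 point per library. Mog, Mobp, Opalin, Ermn and Car2 step up from newly formed to mature nuclei, Mbp and Cnp do not, and Aspa is as high in microglia (732 to 1050.2 CPM) as in mature oligodendrocytes (732 to 986 CPM).

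Against OPCs, the 10 genes outside the rule with the highest ratio of mean CPM (10 CPM added to both) were Mbp at 176, Pex5l at 41.8, Car2 at 35.5, Septin4 at 32.0, Lpar1 at 28.8, Ppp1r14a at 28.0, Grm3 at 25.5, Rpe65 at 24.7, Fnbp1 at 23.8 and Dock5 at 23.3. Lpar1 is a receptor for lysophosphatidic acid, Grm3 a metabotropic glutamate receptor, and Septin4 a filament protein of the cell cortex. Pex5l stood at 4675, 3636, 3578 and 4676 CPM in mature nuclei and at 61.3 to 151 CPM in OPCs. Rpe65, known as the retinoid isomerase of the eye's pigment epithelium, stood at 339.6, 339.7, 211 and 486 CPM, against 2.70 to 5.93 CPM in OPCs. Lower than in OPCs were, first, Pcdh15, a protocadherin, with 59.8, 56.2, 96.3 and 58.9 CPM against 2142 to 2522 CPM, and Col5a3, a fibrillar collagen chain, with 28.6, 27.6, 27.8 and 22.0 CPM against 489 to 839 CPM. All 4 libraries had the same order for each gene named here, but the nuclei were chosen by genes that move along the same path, so no test is given.

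Aspa, which splits N-acetylaspartate and is used as an oligodendrocyte marker, did not separate mature oligodendrocytes from microglia. It stood at 899, 986, 732 and 958 CPM in mature oligodendrocytes and at 809, 892, 732 and 1050.2 CPM in microglia, a class chosen by its own 6 markers with at most 1 mature marker UMI. Astrocytes had 26.1 to 64.4 CPM and OPCs 21.6 to 44.4 CPM. In the same microglia Mog was at 15.6 to 30.6 CPM and Opalin at 7.82 to 14.5 CPM.

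Markers used elsewhere to divide mature oligodendrocytes into subtypes were read after each nucleus was thinned to 1000 UMIs, which left 743, 924, 217 and 618 nuclei. A UMI of Opalin was found in 47.8%, 46.5%, 47.9% and 52.4% of them, of Apod in 57.5%, 53.1%, 52.5% and 64.7%, and of Ptgds, a prostaglandin synthase, in 26.6%, 29.4%, 24.0% and 30.4%. Before thinning the shares were 59.6%, 60.5%, 57.2% and 66.5% for Opalin, 67.6%, 68.4%, 58.7% and 78.6% for Apod, and 35.8%, 41.6%, 24.0% and 40.7% for Ptgds. Astrocytes thinned in the same way had Opalin in 0 to 1.03%, Apod in 2.94 to 5.83% and Ptgds in 2.94 to 8.92% of nuclei. Opalin helped to choose the mature nuclei, and astrocytes were allowed at most 1 mature marker UMI, so its gap follows from the rules. Klk6, the protease that marks a further subtype in mouse, was found in 1.75%, 2.60%, 0.461% and 2.91% (2.53%, 3.97%, 1.92% and 4.56% before thinning), against 0 to 0.599% in astrocytes.

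Finding Apod in a nucleus did not go with the same change in Opalin in every library. Many thinned nuclei lacked a UMI of either gene, which a low count alone can cause, and Opalin helped to choose the nuclei. These shares therefore cannot tell whether the 2 markers split the nuclei. Opalin was found in 48.9%, 46.2%, 53.5% and 51.5% of nuclei with an Apod UMI and in 46.2%, 46.9%, 41.7% and 54.1% of those without, higher with Apod in METH replicate 1 and saline replicate 1 and lower in the other 2 libraries. Ptgds was found in 28.3%, 28.9%, 29.8% and 30.8% of nuclei with Apod and in 24.4%, 30.0%, 17.5% and 29.8% of those without. Anln, a septin-binding protein of myelin, was more frequent with Apod in all 4 libraries, at 19.4%, 19.3%, 10.5% and 14.5% against 11.7%, 10.4%, 6.80% and 12.4%.

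Over the 1654 genes with a mean of at least 0.1 UMI in each library's thinned nuclei, the variance among nuclei was a median of 1.09 times the mean, close to counting noise, and 136 genes exceeded 1.2 in all 4 libraries. Among the 10 highest by median rank were AC134224.3, Srgap2, Nrxn3, Mt-co3, Ank3, Nav3, Tmeff2, Pex5l and Arhgap15. AC134224.3, which has only a placeholder symbol, stood at 119030, 146480, 118970 and 116250 CPM, and its variance was 24.3, 20.1, 26.7 and 30.3 times its mean. Ank3, which anchors channels at the axon's nodes and is also made by glia, had 3.49, 2.70, 3.62 and 3.04, and Tmeff2, a transmembrane protein found in 97.4%, 97.2%, 92.6% and 98.9% of the nuclei, 2.90, 2.66, 3.96 and 2.73. Nrxn3, a neuronal adhesion gene, averaged 0.743, 0.436, 1.79 and 0.379 UMIs, with saline replicate 1 the highest.

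Srgap2 marked a subset of nuclei that carried microglial RNA. It was found in 23.0%, 20.9%, 28.1% and 21.4% of thinned nuclei (25.3%, 25.6%, 25% and 24.8% before thinning), and its level was 692, 767, 598 and 684 CPM in mature oligodendrocytes against 6479.6, 6417, 4909 and 6759 CPM in microglia. Among nuclei with an Srgap2 UMI, Arhgap15 was found in 31.0%, 37.8%, 39.3% and 31.8%, and among those without in 1.92%, 2.19%, 1.92% and 2.06%. Inpp5d, a phosphatase of blood-derived and microglial cells, was found in 22.8%, 27.5%, 23.0% and 25% against 1.22%, 0.410%, 2.56% and 0.412%. The microglial protease Ctss was found in 15.8%, 17.6%, 13.1% and 16.7% against 2.80%, 2.05%, 1.28% and 0.823%. Of the oligodendrocyte genes, Grm3 was found in 93.0%, 96.9%, 90.2% and 93.2% with Srgap2 and 95.5%, 96.7%, 91.0% and 96.5% without, close to its ceiling in both sets. Opalin was less frequent with Srgap2 in all 4 libraries, at 31.6%, 39.9%, 41.0% and 47.0% against 52.6%, 48.3%, 50.6% and 53.9%. So was Car2, at 67.8%, 60.1%, 54.1% and 65.9% against 76.6%, 73.7%, 64.7% and 79.6%, and Anln, at 11.1%, 13.5%, 4.92% and 8.33% against 17.7%, 15.6%, 10.3% and 15.2%. At least 5 UMIs of 6 microglial markers were held by 54, 77, 12 and 37 mature nuclei, or 5.25%, 7.10%, 2.88% and 4.82%. The nuclei with the highest doublet scores (a number per library set by its size) included 80, 86, 17 and 47 mature nuclei; whether they account for the microglial RNA was not tested.

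**Figure D2:**
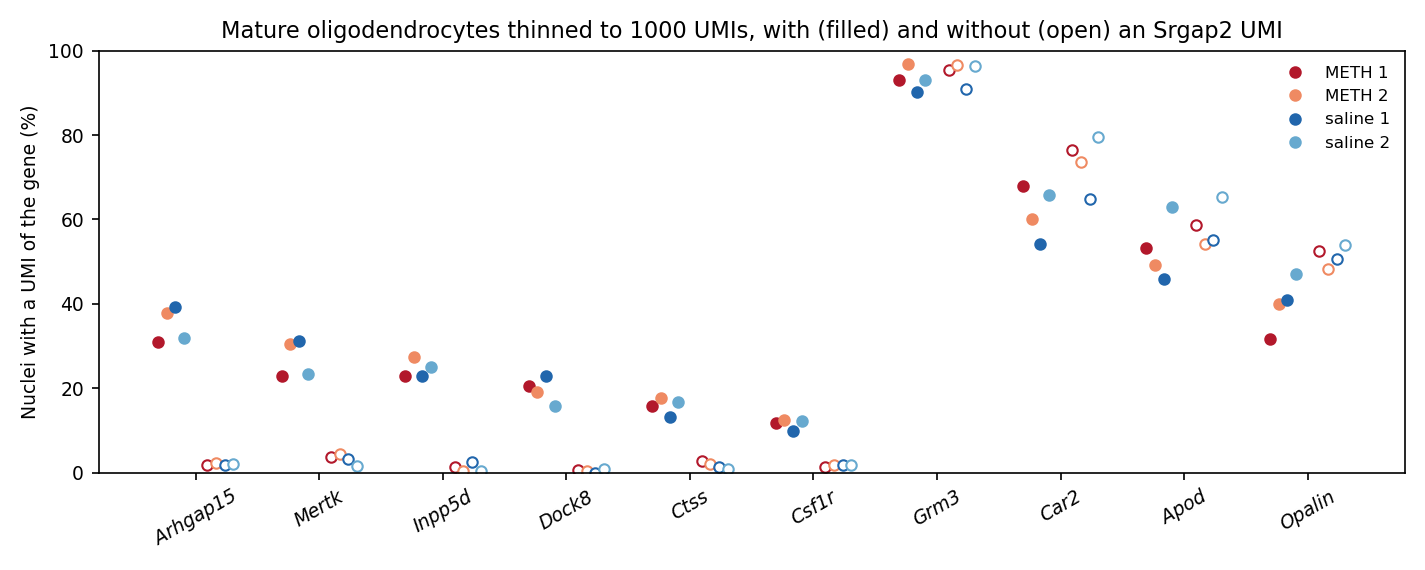
Share of thinned mature oligodendrocytes with a UMI of each gene, for nuclei with (filled) and without (open) an Srgap2 UMI, 1 point per library. The microglial genes Arhgap15, Mertk, Inpp5d, Dock8, Ctss and Csf1r lie at 9.84% to 39.3% with Srgap2 and at 0 to 4.38% without, while Grm3 lies at 90.2% to 96.9% in both sets.

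Mature oligodendrocytes made up a larger share of nuclei in both METH libraries than in both saline libraries, but 1 saline library set most of the gap. They were 1028 of 9774 nuclei in METH replicate 1 (10.5%, 95% exact Clopper-Pearson interval 9.92 to 11.1), 1084 of 8565 in METH replicate 2 (12.7%, 11.96 to 13.4), 416 of 17393 in saline replicate 1 (2.39%, 2.17 to 2.63) and 767 of 8171 in saline replicate 2 (9.39%, 8.76 to 10.0). The means were 11.6% ± 1.51 (SD, n = 2) in METH and 5.89% ± 4.95 (SD, n = 2) in saline, a gap of 5.70 percentage points that was 2.20 points without saline replicate 1. An exact permutation test of 2 against 2 libraries cannot give a two-sided p below 0.33. The intervals cover counting error only.

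Saline replicate 1 stood apart in depth, with the most nuclei and a median of 1969 UMIs in all nuclei kept, against 3016 to 3741 in the other libraries. Mature nuclei were shallow in every library, with medians of 1206, 1391.5, 1029.5 and 1345 UMIs and 777, 843.5, 698.5 and 851 genes, and their summed counts were 1572575, 1922503, 539929 and 1272938. After thinning to 1000 UMIs, with a limit of 2 marker UMIs, the shares were 10.2%, 13.1%, 2.63% and 9.39%. The low share in saline replicate 1 was not particular to mature oligodendrocytes. Other glia were also a smaller part of its 17393 nuclei than of the nuclei in the other libraries. OPCs numbered 494, 515, 241 and 464, astrocytes 361, 590, 221 and 344, and microglia 375, 460, 95 and 373. Newly formed oligodendrocytes numbered 46, 51, 43 and 33. Per OPC nucleus the counts were steadier, at 2.08, 2.10, 1.73 and 1.65 mature nuclei, higher in both METH libraries. Between libraries, 21 to 58 cell barcodes were shared among the nuclei kept and 1 among mature nuclei.

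**Figure D3:**
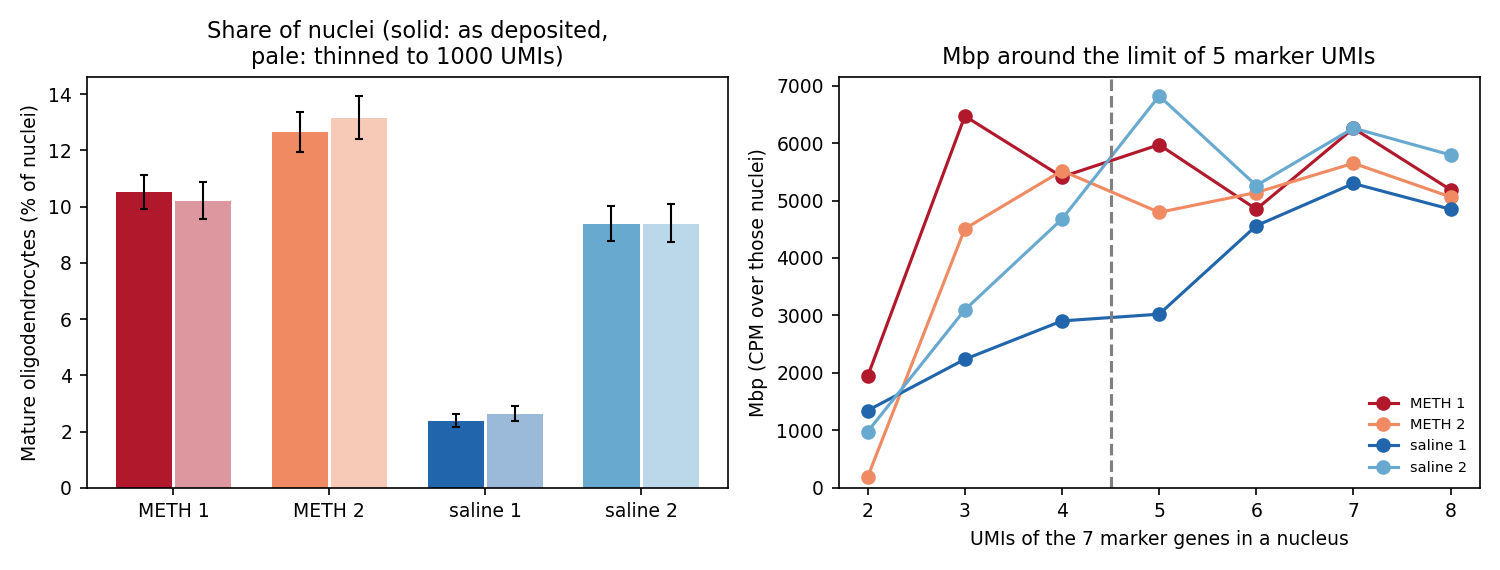
Left, mature oligodendrocytes as a percentage of nuclei in each library with 95% exact intervals, from deposited counts (solid) and after thinning (pale). Right, Mbp in CPM over nuclei with 2 to 8 UMIs of the 7 marker genes, where the dashed line is the limit of the rule; saline replicate 1 is the lowest library from 3 to 8 marker UMIs.

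No gene passed the test of METH against saline in mature oligodendrocytes. Counts were summed per library and compared by edgeR's quasi-likelihood F test with Benjamini-Hochberg adjustment over 10127 genes: 0 were called (0%), and the smallest adjusted p was 0.99994. At an unadjusted p under 0.05 there were 238 genes (2.35%), 126 higher and 112 lower in METH, and DESeq2 called 0 with 49 (0.484%) at an unadjusted p under 0.05. The METH libraries were both above both saline ones in 1409 genes (13.9%) and below them in 1630 (16.1%), and the median log2 fold change was -0.0029. The standard error of a log2 fold change had a median of 0.28 over all genes and of 0.16 over the 2090 genes above 100 CPM. Leaving out a saline library made calls: without saline replicate 1 there were 19 higher and 3 lower, and without saline replicate 2 there were 43 higher and 203 lower, with Ctss, Sgk1 and Cst3 called both times. In those fits the lone saline library is assumed to vary like the METH libraries. In the main fit of all 4 libraries, the values below for METH against saline did not pass adjustment. Without the filter on low counts, Ctss, Sgk1, Cst3 and Grm7 were called with all 4 libraries.

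**Figure D4:**
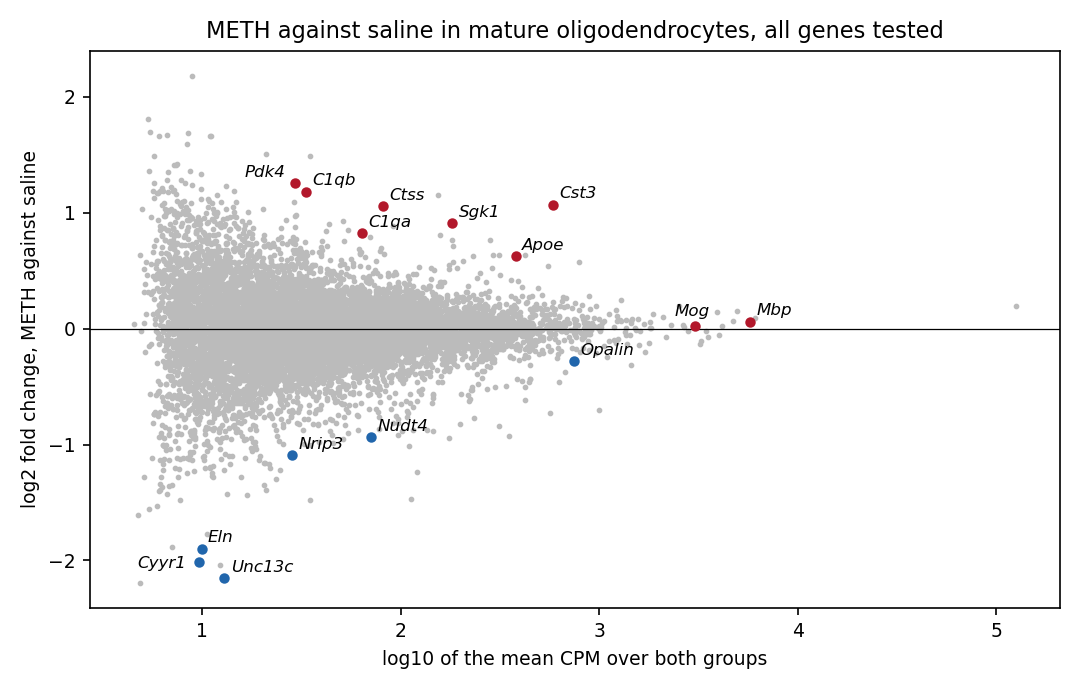
Log2 fold change of METH against saline in mature oligodendrocytes (y axis) against the log10 of the mean CPM (x axis) for all 10127 genes tested; named genes are red where higher and blue where lower in METH, and none passed the adjusted test. Mbp and Mog lie at 0.06 and 0.02, while Cst3, Ctss and Sgk1 lie at 1.07, 1.05 and 0.91.

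Genes of the myelin sheath did not separate the groups. Of 26 tested, 0 were called and 2 had an unadjusted p under 0.05. The rule used 6 of the 26, among them Mag, Mog, Mobp and Opalin, so their level was partly set by the choice of nuclei. In both METH libraries 1 lay above and 6 below, where the shares over all genes are 13.9% and 16.1%. The median log2 fold change was -0.03. That median was -0.18 without saline replicate 1, with 3 of 26 positive, and 0.18 without saline replicate 2, with 20 of 26 positive. Mbp, at the CPM values given above, had a log2 fold change of 0.06 (SE 0.23), with saline replicate 2 the highest and saline replicate 1 the lowest library. Mag stood at 606, 583, 596 and 705 CPM (log2 fold change -0.12, SE 0.16) and Mog had a log2 fold change of 0.02 (SE 0.20). Mobp stood at 1473, 1322, 1039 and 1328 CPM (0.25, SE 0.19) and Cnp, a phosphodiesterase of the non-compact myelin, at 118, 135.2, 111 and 135.1 CPM (0.04, SE 0.17). In all 5 genes the groups overlapped. The member with the smallest p was Cryab, a small heat shock protein abundant in oligodendrocytes, at 97.9, 82.2, 37.0 and 62.1 CPM (0.79, SE 0.24). Opalin was lower in both METH libraries, with a log2 fold change of -0.28 (SE 0.16, unadjusted p = 0.117 in the edgeR test).

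The regulators of the myelin programme did not separate the groups either. Sox10 stood at 287, 285, 263 and 301 CPM (log2 fold change 0.03, SE 0.15) and Myrf at 90.9, 92.1, 79.6 and 107 CPM (-0.05, SE 0.19). Olig2 lay above in both METH libraries, at 35.6, 30.7, 27.8 and 27.5 CPM (0.27, SE 0.26). Of 19 such factors tested 9 had positive and 10 negative fold changes. In both METH libraries 4 lay above and 0 below, where the shares over all genes are 13.9% and 16.1%. Their median was -0.0052, and 0.22 without saline replicate 2. The member with the smallest p was Klf9, a factor that hormones induce, at 160.2, 167, 106 and 137 CPM (0.43, SE 0.17). Subunits of the SWI/SNF chromatin remodeller and other chromatin genes gave 17 positive and 11 negative fold changes of 28; Smarcc1, a core subunit, stood at 139.9, 152, 137 and 165 CPM (-0.05, SE 0.16).

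Lipid synthesis, iron and energy genes gave medians near 0 as well. Cholesterol synthesis had 9 positive and 12 negative fold changes of 21 (median -0.08), with the squalene synthase Fdft1 at 156, 139.9, 126 and 112 CPM (0.34, SE 0.16) and the sterol isomerase Ebp at 6.99, 7.80, 22.2 and 10.2 CPM (-0.95, SE 0.49). Galactolipid and fatty acid synthesis had 8 positive and 12 negative of 20 (median -0.04). Among iron genes, 6 positive and 4 negative of 10, the transporter Slc11a2 stood at 37.5, 26.5, 14.8 and 20.4 CPM (0.79, SE 0.32). Genes of metabolic support and potassium uptake had 10 positive and 8 negative of 18 (median 0.03), and those of the axon-glia junction 4 positive and 12 negative of 16 (median -0.08). Clock genes gave 9 of each sign among 18. In both METH libraries 0 lay above and 0 below, where the shares over all genes are 13.9% and 16.1%. Their median was 0.0041, but 0.20 without saline replicate 1 and -0.14 without METH replicate 2.

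Glucocorticoid response genes had mostly positive fold changes. Of 20 on the list 17 were tested, 13 had positive and 4 negative fold changes, and 9 lay above and 2 below in both METH libraries, where the shares over all genes are 13.9% and 16.1%; the median log2 fold change was 0.50 against -0.0029 over all genes. None passed adjustment, 5 had an unadjusted p under 0.05, and leaving out 1 library in turn moved the median between 0.37 (without saline replicate 1) and 0.75 (without saline replicate 2, with 4 called). Sgk1, a kinase that glucocorticoids induce, stood at 248, 229.9, 102 and 148 CPM (log2 fold change 0.91, SE 0.19, unadjusted p = 0.0011 in the edgeR test). Pdk4, which restrains glucose oxidation, stood at 36.2, 48.9, 9.26 and 22.8 CPM (1.25, SE 0.37), Tsc22d3, the leucine zipper protein GILZ, at 49.6, 56.2, 40.7 and 36.1 CPM (0.50, SE 0.22), and Ddit4, a brake on mTOR signalling, at 85.2, 73.9, 51.9 and 63.6 CPM (0.44, SE 0.19). In all 4 genes both METH libraries were the higher ones, but Tsc22d3 and Ddit4 are examples chosen after their values were seen. The 2 genes that lay below in both METH libraries are not among these 4, and the lowest log2 fold change on the list was -0.57.

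Fkbp5, the co-chaperone of the glucocorticoid receptor, was high in 1 library: it stood at 21.0, 84.3, 11.1 and 23.6 CPM (1.49, SE 0.93), and METH replicate 1 lay between the saline libraries. Zbtb16 shared that library, at 121, 306, 77.8 and 112 CPM (1.16, SE 0.58), though METH replicate 1 was just above saline replicate 2. METH replicate 2 was also the highest library for Fkbp5 in microglia, at 47.8, 211, 50.8 and 41.1 CPM, and in astrocytes, at 14.8, 65.5, 52.2 and 16.1 CPM. The receptors themselves stood at 80.8, 60.9, 75.9 and 95.8 CPM for Nr3c1 (-0.30, SE 0.21) and 149, 157, 181 and 130.4 CPM for Nr3c2 (0.02, SE 0.18).

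**Figure D5:**
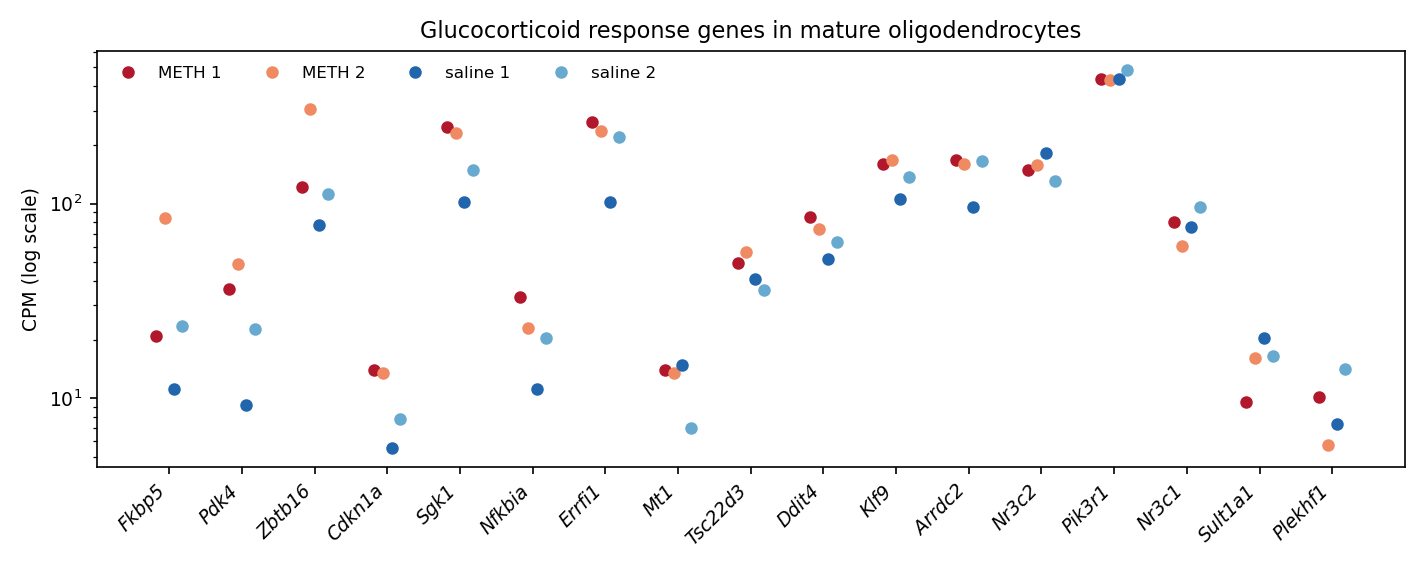
Level (CPM, log axis) of the 17 tested glucocorticoid response genes in mature oligodendrocytes, 1 point per library, ordered by log2 fold change. Sgk1 and Pdk4 are higher in both METH libraries, Fkbp5 and Zbtb16 are highest in METH replicate 2 (84.3 and 306 CPM), and none passed the adjusted test.

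Sgk1 was level between the libraries in the sum of all other nuclei, but not within the oligodendrocyte lineage. In all other nuclei it stood at 131, 133, 129.6 and 132 CPM, in OPCs at 139, 143, 118 and 115 CPM, in newly formed oligodendrocytes at 191, 172, 77.8 and 60.9 CPM and in microglia at 128, 154, 131 and 111 CPM. In OPCs and in newly formed oligodendrocytes, whose sums held only 46, 51, 43 and 33 nuclei, both METH libraries were the higher ones as well. The groups overlapped in microglia. Mature oligodendrocytes of METH replicate 1 and 2 lay above all of these, and those of saline replicate 1 below the other nuclei. The METH effect in mature oligodendrocytes exceeded that in all other nuclei by 0.94 on the log2 scale (SE 0.20, unadjusted p = 7.8e-05, adjusted p = 0.712 in the edgeR test of the difference), so it did not pass. A Sgk1 UMI was found in 20.7%, 20.1%, 8.76% and 12.1% of thinned nuclei (27.9%, 29.8%, 9.38% and 19.6% before thinning), against 1.201% to 4.12% of astrocytes.

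The 5 genes with the smallest p among those higher in METH were Ctss, Sgk1, Cst3, C1qa and C1qb. Cst3, the protease inhibitor cystatin C, stood at 845, 748, 293 and 462 CPM (log2 fold change 1.07, SE 0.22), Ctss at 107, 113, 46.3 and 58.1 CPM (1.05, SE 0.19), C1qa, a chain of complement C1q, at 75.7, 86.9, 46.3 and 46.3 CPM (0.83, SE 0.19) and C1qb at 41.3, 49.4, 24.1 and 18.1 CPM (1.18, SE 0.28). Microglia, a class chosen in part by Ctss, hold more of each, with Ctss at 877 to 1279 CPM and C1qa at 312 to 503 CPM. Of 13 microglial markers 12 had positive fold changes. In both METH libraries 9 lay above and 0 below, where the shares over all genes are 13.9% and 16.1%. Their summed level was 907 and 1022 CPM in METH against 676 and 749 CPM in saline, and none of the 13 was at 0 in any library. In the nuclei with at most 1 UMI of 6 microglial markers (945, 987, 378 and 704), the log2 fold change was 1.28 (SE 0.22) for Cst3, 1.14 (SE 0.29) for C1qa and 1.70 (SE 0.55) for Ctss. This selection was added after the data were seen, and none passed adjustment there. Ctss is 1 of those 6 markers, so its value was read in nuclei limited on Ctss itself.

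Cst3 had both METH libraries above both saline libraries in OPCs and in all other nuclei too, while the groups overlapped in microglia. In all other nuclei it stood at 289, 293, 129 and 175 CPM, in OPCs at 574, 476, 326 and 321 CPM and in microglia at 3001, 2643, 1370.5 and 2732 CPM. The METH effect in mature oligodendrocytes differed from that in all other nuclei by 0.19 (SE 0.21). A Cst3 UMI was found in 52.8%, 47.6%, 20.7% and 30.9% of thinned mature nuclei (62.4%, 64.4%, 26.7% and 41.6% before thinning) and in 43.4%, 41.8%, 25% and 21.9% of thinned OPCs. The wider list of cystatin and lysosome genes had 18 positive fold changes of 19 and a median of 0.24. In both METH libraries 10 lay above and 0 below, where the shares over all genes are 13.9% and 16.1%. Tpp1, a lysosomal peptidase, stood at 62.3, 61.4, 38.9 and 48.7 CPM (0.47, SE 0.21). Apoe, a lipid carrier made mainly by astrocytes and microglia, stood at 457, 459, 320.4 and 284 CPM (0.62, SE 0.15), and the class I light chain B2m at 79.5, 75.9, 40.7 and 55.0 CPM (0.66, SE 0.20). Of 10 astrocyte markers tested, Apoe among them, 9 had positive fold changes. In both METH libraries 2 lay above and 0 below, where the shares over all genes are 13.9% and 16.1%. Their summed level was 1402, 1747, 1576 and 1043 CPM, and none of the 11 in the files was at 0. The median log2 fold change was 0.23. That median was 0.81 without saline replicate 1, with 4 of 11 called, and -0.27 without saline replicate 2, with 1 called. The part of astrocyte RNA in the Apoe and Cst3 differences was not tested.

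The 5 genes with the smallest p among those lower in METH were scarce, apart from Nudt4. That gene, a hydrolase of diphosphoinositol phosphates, stood at 45.1, 48.9, 113 and 75.4 CPM (-0.93, SE 0.22) and Nrip3 at 19.7, 16.1, 40.7 and 36.9 CPM (-1.09, SE 0.27). Unc13c, a priming factor of synaptic vesicles, rested on 10, 5, 15 and 19 UMIs (-2.15, SE 0.55), Cyyr1 on 5, 9, 6 and 25 UMIs (-2.01, SE 0.51) and Eln, elastin, on 5, 9, 10 and 17 UMIs (-1.90, SE 0.50). Both METH libraries lay below both saline libraries in CPM for each of the 5, an order that picking by p favours and that 16.1% of all genes had.

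Among receptors, Grm7, a metabotropic glutamate receptor, stood at 239, 234, 587 and 338 CPM (-0.93, SE 0.24), while Grm3 stood at 5258, 5151, 3991 and 5463 CPM (0.15, SE 0.23). Mertk, an engulfment receptor, stood at 185, 270.0, 126 and 152 CPM (0.71, SE 0.21) and was one of the genes found with Srgap2. Transmitter receptors as a list had 7 positive and 14 negative fold changes of 21 and a median of -0.10, which was 0.11 without saline replicate 1 and -0.68 without saline replicate 2, with 6 called. Growth factor and differentiation receptors had 7 positive and 12 negative of 19. Excitatory neuron markers moved with saline replicate 1: their summed level in mature nuclei was 1772, 1359, 3410 and 1262 CPM, none of the 12 was at 0 in that library, and the list's median was -0.38, or 0.39 without saline replicate 1. Their part in the Grm7 difference was not tested. Mitochondrially encoded genes, a sign of cytoplasmic carry-over in nuclei, had 9 negative fold changes of 12 and a median of -0.42, with summed levels of 3117, 2058, 3430 and 3475 CPM. Their median was -0.098 without METH replicate 2, the library with the lowest sum, and -0.69 without METH replicate 1; it was 0.06 in nuclei with at most 1% mitochondrial UMIs, a limit set on the same genes.

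The METH effect in mature oligodendrocytes did not differ from that in OPCs in any of 10297 genes (0 called, 0%, by edgeR with adjustment; 325, or 3.16%, at an unadjusted p under 0.05), nor from that in all other nuclei in any of 15894 genes (0 called, 0%; 451, or 2.84%). DESeq2 was not run on these differences. Against OPCs the smallest p belonged to Cntnap5c, a neurexin relative, with a difference of 1.75 (SE 0.38), Eln with -2.24 (SE 0.50) and Itih3 with -1.70 (SE 0.42), all at an adjusted p of 1. Against all other nuclei Sgk1 was followed by Unc13c, with -2.22 (SE 0.48), and the oestrogen receptor Esr2, with -1.78 (SE 0.43, adjusted p = 0.901).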

How the data were processed

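UMI counts per gene and nucleus were deposited by the authors as 4 filtered matrices of 25399 genes, made with Cell Ranger 7.0.0 per the submitters' processing notes. Those notes name a human build although the gene identifiers are of rat; no rat build is named in them. Libraries held 8467 to 18958 barcodes and 37758602 to 44034787 UMIs. Nuclei with under 500 genes (264 to 1552 per library) or over 5% mitochondrial UMIs (11 to 32) were removed; likely doublets were kept and removed only in an alternative. OPCs, newly formed oligodendrocytes, astrocytes and microglia were chosen by similar marker rules. Members, gene lists and named genes were chosen with earlier results of these data known.

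Counts were summed per library and tested with edgeR 4.0.16 in R 4.3.3 (quasi-likelihood F test, TMM, filterByExpr, threshold 0.05 after Benjamini-Hochberg adjustment), with an interaction term and library block for differences between classes. DESeq2 1.42.0 was an alternative. Shares of nuclei with a UMI were read after thinning to 1000 UMIs. Python 3.11.15, NumPy 2.4.6, SciPy 1.17.1, pandas 2.3.3, Scanpy 1.11.5 and matplotlib 3.10.9 were used, and the tests were checked on simulated data. Genes were named as the 5 with the smallest p in each direction, 2 per list, 3 per test of a difference, the 10 most variable, the 10 highest against OPCs and a set of core oligodendrocyte genes; not all are printed, and results of some genes are not reported here. Other genes are named as examples chosen after their values were seen. Of the symbols in the files, 148 are shared by more than 1 identifier. Alternatives changed the filter, scaling, dispersion, nuclei and libraries entered.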

Additional observations from a re-analysis of the deposited data

How the results depend on the processing

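Between METH and saline, 0 genes were called in either direction with RLE scaling, without robust dispersion, with doublets removed, with at least 1000 genes or 10 marker UMIs per nucleus, with the rule on thinned nuclei, with 416 nuclei per library, without neuronal UMIs, with at most 1% mitochondrial UMIs, with at most 1 microglial UMI (added after seeing the data), with DESeq2 and with a replicate block. Without a filter on low counts, 5 were higher, among them Ctss, Sgk1 and Cst3, and 5 lower, among them Grm7. Leaving out 1 library gave 0 to 43 higher and 0 to 203 lower. Against OPCs, leaving out 1 library gave 0 to 6 higher and 0 to 27 lower. Against all other nuclei it gave 0 to 55 and 0 to 278, no filter gave 1 and 7, and at least 10 marker UMIs gave 13 lower. The replicate block called 0 genes and gave 351 at an unadjusted p under 0.05; same-numbered libraries share only a number (correlation of deviations 0.167). The METH minus saline gap in the share of mature oligodendrocytes was 2.20 to 9.20 points when 1 library was left out, 2.10 with at least 1000 genes and 3.08 with at least 10 marker UMIs. The causes were not tested.

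Of 1188 alternatives for 73 results on named genes, 1114 kept direction and call, 27 became calls and 47 reversed, in 19 genes. These results include the genes named for the tests of a difference between classes, so Sgk1, Unc13c and Eln are counted more than once. Log2 fold changes that reversed were, with at least 1000 genes, Cdk18 0.051, Mag 0.0062, Cnp -0.11 and Ermn 0.11; with doublets removed, Npas2 -0.61, Ermn 0.013 and Myrf 0.046; with the rule on thinned nuclei, Npas2 -0.26, Mpzl1 0.083, Mag 0.11, Ermn 0.18 and Myrf 0.030. With at least 10 marker UMIs they were Rnd3 0.032, Mog -0.037, Cnp -0.096 and Sox10 -0.039, with equal nuclei Mag 0.041, Ermn 0.013, Sox10 -0.047 and Myrf 0.10, without neuronal UMIs Mog -0.031, Sox10 -0.048 and Smarcc1 0.051. Without a filter on low counts, the value that reversed was METH against saline: Ermn at 0.0050. Leaving out 1 library gave ranges of -1.73 to 0.029 for Anxa5, -0.78 to 0.16 for Celf2, -0.093 to 0.24 for Cnp, -0.15 to 0.11 for Ermn, -1.18 to 0.26 for Gad1, -0.57 to 0.019 for Gria4, -0.25 to 0.044 for Mag, -0.15 to 0.32 for Mbp and -0.13 to 0.19 for Mog. They were -0.35 to 0.15 for Mpzl1, -0.23 to 0.25 for Myrf, -0.76 to 0.060 for Nectin1, -0.19 to 1.35 for Npas2, -0.53 to 0.070 for Nr1d2, -0.18 to 0.14 for Smarcc1, -0.078 to 0.17 for Sox10 and -0.14 to 0.99 for Sst. The causes were not tested. With 2 libraries per group and 539929 UMIs in the mature nuclei of saline replicate 1, small differences in scarce genes were not detectable. A larger difference in a well-detected gene did not pass the main test either. Cst3, with 1329, 1438, 158 and 588 UMIs, had a log2 fold change of 1.07 (SE 0.22) there. The lack of calls is therefore no evidence that the groups were alike.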
